A study of Mus musculus with 42 samples.

Results

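The regions described here carried acetylation of histone H3 at lysine 27 (H3K27ac) in resting wild-type (WT) macrophages, had no detected region after 1 h of lipopolysaccharide (LPS), and had one again after 18 h. They were chosen by their H3K27ac values in WT. Enriched regions of the 9 WT libraries were merged where they overlapped, and a merged region was kept when it was found in all 3 libraries at 0 h, in all 3 at 18 h and in none of the 3 at 1 h. This left 839 members of 58683 merged regions. WT H3K27ac values are therefore given as a description with no test, and the tests below use the KO H3K27ac libraries and the Pol II libraries, which played no part in the choice.

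The study compared bone marrow-derived macrophages of male C57Bl6/J mice aged 6 to 12 weeks, WT or deficient in Nur77 (KO). Nur77 is a nuclear receptor encoded by Nr4a1. Marrow cells were grown for 7 days in L929-conditioned medium, as a source of M-CSF, and received 100 ng/ml LPS for 0, 1 or 18 h. The deletion was made in the whole animal by a CMV-driven Cre deleter strain, the mice were later bred without Cre, and WT littermates served as controls, whereas the genotype label of the KO libraries reads only cre. Chromatin immunoprecipitation with sequencing gave 3 libraries for each genotype, time and antibody, with H3K27ac and RNA polymerase II (Pol II) as the targets, and 1 input library for each genotype and time. The labels do not say that the 3 libraries of a group came from separate mice, so p-values measure only the spread between these libraries.

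Macrophages recognise LPS, a component of the outer membrane of Gram-negative bacteria, through Toll-like receptor 4. The signal activates NF-kB, AP-1 and interferon regulatory factors, which bind enhancers kept accessible by lineage factors such as PU.1 and C/EBP proteins and recruit acetyltransferases and Pol II. H3K27ac marks active promoters and enhancers, and it can fall within minutes to hours where acetyltransferases leave a site. Enhancers that lose the mark early after LPS have been described near genes of the resting macrophage programme. In bulk chromatin, fewer cells carrying a mark and less mark per cell cannot be told apart.

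The sequences below show what the members look like at base level. They are the central 300 bases of members among the 10 with the highest WT 0 h mean and the 10 strongest with the same pattern in KO, limited to those with a match to 1 of 8 transcription factor motifs and named by the nearest protein-coding gene. 7 of these 20 members had such a match. Matches are in capitals, and the plus strand of the GRCm38 RefSeq assembly, which is mm10, is shown.

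Members among the highest at WT 0 h, with matches of AP-1 (TGANTCA), C/EBP (TTGCNNAA) and PU.1 (GAGGAAGT) on either strand, follow.
Nrcam, chr12:44355188-44355487: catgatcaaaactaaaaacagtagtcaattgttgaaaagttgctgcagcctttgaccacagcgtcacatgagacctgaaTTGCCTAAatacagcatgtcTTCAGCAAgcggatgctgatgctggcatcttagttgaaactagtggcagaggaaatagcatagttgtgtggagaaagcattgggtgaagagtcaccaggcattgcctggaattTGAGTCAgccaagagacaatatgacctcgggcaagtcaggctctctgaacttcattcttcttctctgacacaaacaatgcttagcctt
Thrb, chr14:17426287-17426586: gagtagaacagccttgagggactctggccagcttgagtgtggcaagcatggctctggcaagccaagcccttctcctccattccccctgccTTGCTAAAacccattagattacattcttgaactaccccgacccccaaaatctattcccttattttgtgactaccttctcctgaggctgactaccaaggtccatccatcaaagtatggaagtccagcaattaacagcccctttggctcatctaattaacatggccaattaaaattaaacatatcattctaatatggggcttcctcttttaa
Nwd1, chr8:72655413-72655712: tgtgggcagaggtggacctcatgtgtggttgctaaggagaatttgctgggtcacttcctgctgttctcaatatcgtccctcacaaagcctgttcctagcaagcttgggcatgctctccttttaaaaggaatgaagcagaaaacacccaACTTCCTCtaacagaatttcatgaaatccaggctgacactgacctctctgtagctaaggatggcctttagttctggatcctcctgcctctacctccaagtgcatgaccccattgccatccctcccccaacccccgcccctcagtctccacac

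Members that were also absent at 1 h in all KO libraries, with matches of C/EBP, AP-1 and kappa B, follow.
Armc2, chr10:42093139-42093438: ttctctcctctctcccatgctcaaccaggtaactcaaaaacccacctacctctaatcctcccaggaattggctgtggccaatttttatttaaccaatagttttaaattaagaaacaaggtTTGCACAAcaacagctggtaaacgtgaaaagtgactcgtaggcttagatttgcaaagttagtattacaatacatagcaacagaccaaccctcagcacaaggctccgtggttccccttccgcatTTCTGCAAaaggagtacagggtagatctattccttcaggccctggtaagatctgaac
Utp18, chr11:93835797-93836096: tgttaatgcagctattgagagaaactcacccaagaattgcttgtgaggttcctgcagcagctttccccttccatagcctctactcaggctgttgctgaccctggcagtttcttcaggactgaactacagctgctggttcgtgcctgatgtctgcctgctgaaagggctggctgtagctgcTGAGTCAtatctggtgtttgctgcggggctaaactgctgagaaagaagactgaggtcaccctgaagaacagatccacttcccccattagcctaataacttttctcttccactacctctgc
Kitl, chr10:100137954-100138253: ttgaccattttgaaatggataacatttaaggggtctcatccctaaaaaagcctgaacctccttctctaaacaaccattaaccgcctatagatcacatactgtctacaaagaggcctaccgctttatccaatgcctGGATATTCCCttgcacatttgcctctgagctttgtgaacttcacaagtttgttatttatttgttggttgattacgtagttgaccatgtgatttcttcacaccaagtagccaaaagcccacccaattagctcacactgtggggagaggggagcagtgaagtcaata
Lrp2, chr2:69613290-69613589: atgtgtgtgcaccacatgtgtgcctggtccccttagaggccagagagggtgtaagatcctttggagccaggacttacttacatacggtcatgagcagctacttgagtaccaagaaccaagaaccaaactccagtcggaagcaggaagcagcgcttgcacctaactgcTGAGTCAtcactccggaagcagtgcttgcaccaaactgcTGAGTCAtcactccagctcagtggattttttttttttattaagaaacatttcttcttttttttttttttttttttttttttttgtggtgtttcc

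The Nrcam member holds 1 AP-1 match and 2 C/EBP matches, and the Lrp2 member holds 2 AP-1 matches with the same letters. The Nwd1 member holds the PU.1 letters on the minus strand, and the Kitl member holds a kappa B match. Each was searched in the central 300 bases of all merged regions as well. PU.1 letters were in 76 of 837 members with a sequence window (9.08%), against 4.85% of 58643 regions and 4.28% of the 23870 found in all 9 WT libraries. AP-1 letters were in 136 members (16.2%, against 13.4% of all regions) and C/EBP letters also in 136 (16.2%, against 13.2%). Kappa B letters were in 83 members (9.92%), against 13.7% of all regions and 15.9% of those found in all 9 libraries. IRF letters (GAAANNGAA) were in 84 members (10.04%, against 12.7%). The NBRE (AAAGGTCA), the element that monomers of Nur77 bind, was in 14 members (1.67%), against 1.63% of all regions. The E-box CACGTG was in 35 members (4.18%, against 4.36%) and the CRE TGACGTCA in 1 (0.119%, against 0.418%). Matches of different motifs overlapped in 1 member. These shares describe letters in a window and were not tested.

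Several libraries have to be read with care. H3K27ac libraries held 13.5 to 55.4 M (mega) tags, and the WT 1 h libraries, which decide membership, were among the shallower ones with 13.5, 14.0 and 20.9 M. The least normalized tags that a window needed to be found were 8.14, 7.84 and 6.71 there, against 6.05 to 6.55 in WT at 0 h. They were 7.98, 7.23 and 5.46 in WT at 18 h, where all members were found. A member not found at 1 h therefore had no window of 500 bp that reached these levels, and need not have been free of acetylation. Members had a median width of 1691 bp, so tags summed over a whole member at 1 h may exceed these levels and are not known. When a single density floor was applied to all 9 WT libraries, 463 regions met the rule, and 359 of the 839 members overlapped them. Among the KO libraries, those at 1 h did not form 1 group. Over the 22881 regions found in all 18 H3K27ac libraries, log2 values of KO 1 h replicate 1 correlated with those of WT 1 h at r = 0.979 to 0.981, whereas replicates 2 and 3 did so at 0.890 to 0.901 and with each other at 0.994. With the 0 h libraries of both genotypes replicate 1 correlated at 0.795 to 0.809 and replicates 2 and 3 at 0.867 to 0.874. KO 18 h replicate 1 correlated with replicates 2 and 3 at 0.915 to 0.916, whereas these did so with WT 18 h at 0.978 to 0.982. KO 1 h replicates 2 and 3 correlated with KO 18 h replicate 1 at 0.875 to 0.878 and with the other KO 18 h libraries at 0.816 to 0.823. A swap, a mixture and a different treatment of these libraries cannot be told apart. These correlations are across regions that share the libraries, and are a description. Counts of KO H3K27ac calls are given with and without KO 1 h replicates 2 and 3 and KO 18 h replicate 1, and KO tests of named members described below are also given without them where the call changed.

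Pol II libraries held 21.7 to 36.1 M tags and correlated within groups at 0.978 to 0.986. Over Nr4a1, Pol II was 189, 188 and 208 normalized tags in WT at 0 h and 87.8, 76.1 and 70.2 in KO, and at 1 h it was 23.0 to 30.4 in WT and 33.5 to 39.0 in KO. These sums cover the whole gene and do not resolve the deleted part. Of the macrophage lineage list, 14 of 15 genes had H3K27ac at the start in all 3 WT 0 h libraries. Of markers of other cells, 1 of 5 T cell genes, 1 of 6 B cell genes, 2 of 8 neutrophil and progenitor genes, 2 of 6 dendritic cell genes, 0 of 6 fibroblast genes and 1 of 5 erythroid and mast cell genes had it. Summed H3K27ac at the fibroblast genes was 0 in WT at 0 h, 42.0 to 62.6 at 1 h and 0 again at 18 h, and their part in any result was not tested.

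Most members lay away from promoters. Regions were placed by their centre alone. Of the 839 centres, 385 were in introns (45.9%), 370 were intergenic (44.1%) and 49 were in an exon (5.84%). The other 35 lay at a promoter, taken as within 1000 bp of a protein-coding transcript start (4.17%). A member can overlap further places beside its centre. Of all merged regions 15.5% were at promoters, and of the regions found in all 9 WT libraries 30.8% were. The median distance to the nearest start of a protein-coding gene was 24250 bp for members, 20946.5 bp for all regions and 9398 bp for those found in all 9. Members were 541 to 6093 bp wide with a median of 1691 bp, against 1807 bp for all regions and 3444 bp for those found in all 9. The nearest region that WT did have at 1 h was at a median of 6957 bp, under 1000 bp away for 34 members and over 100000 bp away for 30. The members were spread over the genome, from 0.946% of the regions of chromosome 1, the lowest share, to 2.09% of those of chromosome X, the highest. They had 749 nearest genes, of which 71 had 2 or more members, and 76 members lay within 10000 bp of another. Of the members, 607 overlapped a region found in an input library (72.3%, against 77.8% of all regions), and 232 overlapped none.

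The median resting level of the members was near that of all merged regions, many of which were not found at rest, and far below that of regions found throughout. Mean H3K27ac over the 3 WT 0 h libraries ranged from 6.26 to 163 normalized tags with a median of 20.5, and at 18 h from 6.73 to 432 with a median of 21.5. Over all merged regions the medians were 19.2 at 0 h and 12.5 at 18 h. These medians include regions set to 0, since single WT libraries held 64.9% to 69.6% of all regions at 0 h and 55.5% to 65.6% at 18 h. By the rule they held every member at both times. In regions found in all 9 libraries the medians were 150, 125 and 131 at 0, 1 and 18 h. Near the edge of the rule, 737 regions were found in 1 of the 3 WT 1 h libraries, with medians of 24.0, 3.09 and 23.6 at 0, 1 and 18 h. Of these, 351 were found only in replicate 3, the deepest WT 1 h library, 196 only in replicate 1 and 190 only in replicate 2. Another 1036 regions were found in 2 of the 3, with medians of 30.5, 8.25 and 27. A further 258 regions missed the rule by 1 library at 0 h and 374 by 1 library at 18 h, and 2237 were found in all 3 libraries at 0 h and in none at 1 or 18 h. Regained levels differed from resting ones in both directions. The 18 h mean was above the 0 h mean in 464 members (55.3%), and it was over 2 times as high in 177, while the 0 h mean was over 2 times the 18 h mean in 137.

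The strongest resting member lay at chr3:82798638-82801670, in intergenic sequence 74813 bp downstream of the start of Rbm46. It held 154.5, 155.8 and 179.1 normalized tags in WT at 0 h and 46.2, 56.3 and 53.8 at 18 h, so all 18 h libraries were below all 0 h ones. A member inside an intron of D430042O09Rik, at chr7:125765639-125769214, fell from 148.1, 146.5 and 138.7 in resting WT cells to 49.2, 60.9 and 48.2 once the region was found again. The member at chr19:4992327-4996203 lay 2010 bp upstream of Npas4, which encodes an activity-regulated bHLH-PAS transcription factor known from neurons. It held 140.1, 128.6 and 135.4 at 0 h and 33.9, 22.9 and 31.0 at 18 h. These 3 regained only part of their resting level. A member upstream of Ap1s2, which encodes a subunit of a clathrin adaptor, lay at chrX:163866905-163869987 and held 128.2, 105.2 and 98.4 at 0 h and 154.6, 144.9 and 138.5 at 18 h. There the 18 h libraries lay above all 0 h ones. Among those named, the member with the largest excess of 18 h over 0 h was 47735 bp upstream of Prdx6, a peroxidase gene, at chr1:161298955-161303679. It held 27.1, 24.0 and 31.6 at 0 h and 415.7, 456.1 and 425.1 at 18 h.

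**Figure D1:**
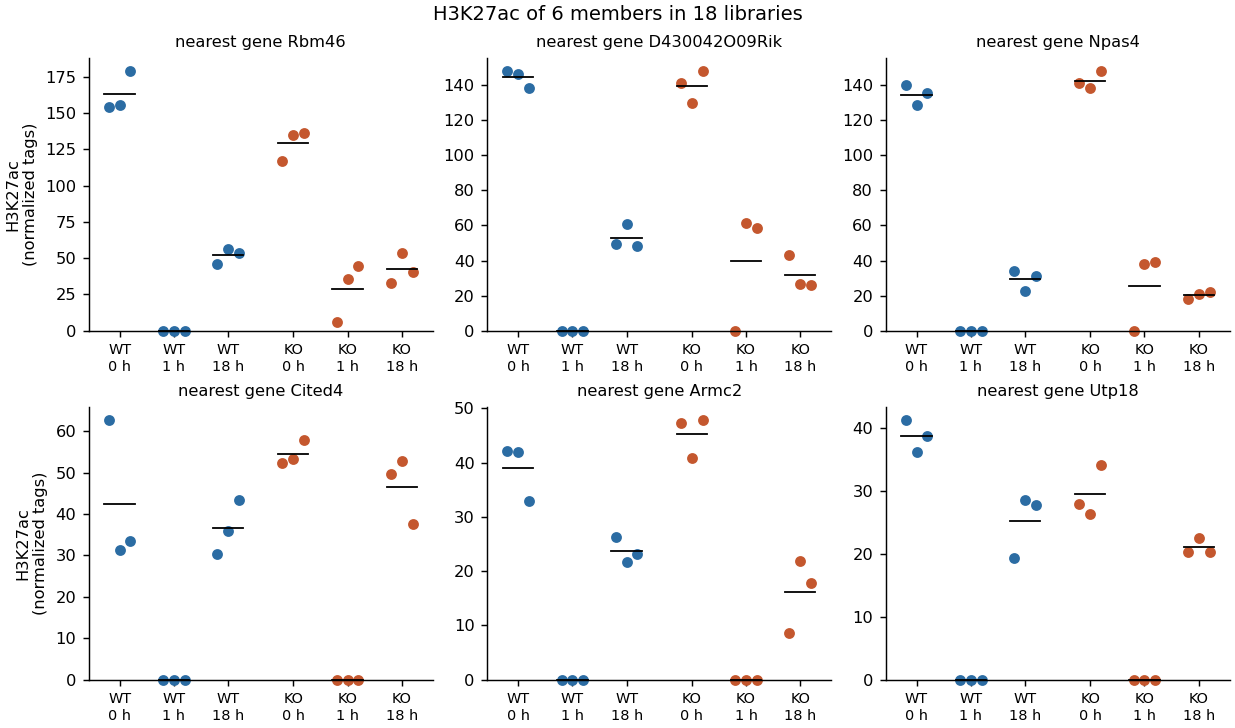
H3K27ac in normalized tags (vertical axis, linear) of 6 members in each of the 18 libraries, with WT and KO at 0, 1 and 18 h on the horizontal axis, each point a library and each short line a group mean. In the top row (Rbm46, D430042O09Rik, Npas4) KO 1 h replicates 2 and 3 stand above replicate 1, and in the bottom row (Cited4, Armc2, Utp18) all KO 1 h libraries are at 0.

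The KO libraries show whether regions chosen in WT behaved alike in cells they were not chosen in. At 0 h nearly all members were present in KO, with 803, 815 and 821 found in replicates 1, 2 and 3. At 1 h 289, 549 and 661 were found (34.4%, 65.4% and 78.8%), against 67.8%, 62.6% and 69.1% of all merged regions in the same libraries. Of the regions that, like the members, were found in all WT libraries at 0 and 18 h, these libraries held 96.0%, 95.8% and 97.7%. Members were thus found less often than those regions in all 3 libraries, and least often in replicate 1. Most of those regions were found in all 9 WT libraries, with a median of 150 at WT 0 h against 20.5 for members. All 3 KO 1 h libraries held 23.5% of members, 48.7% of regions found in 1 of 3 WT 1 h libraries and 10.5% of those lost and not regained. Against all merged regions, members were found more often in replicates 2 and 3. None of this was tested. At 18 h 705, 782 and 745 were found. The summed H3K27ac of all members was 21839, 22729 and 23330 normalized tags in KO at 0 h, then 2843, 12998 and 14930 at 1 h, and 24560, 22660 and 17664 at 18 h. Only a region found in all 3 KO 0 h libraries can lie below each of them, which held for 93.3% of members and 65.5% of all merged regions. The shares that follow are therefore not of like sets. In replicate 1 at 1 h, 759 members (90.5%) lay below every KO 0 h library, against 41.4% of all merged regions, and 6 (0.715%) lay above, against 30.3%. In replicates 2 and 3, 568 (67.7%) and 526 (62.7%) lay below, against 38.3% and 37.1% of all regions. In these libraries 156 (18.6%) and 189 (22.5%) lay above, against 28.5% and 31.7%, and 137 (16.3%) were above in both, against 25.9%.

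**Figure D2:**
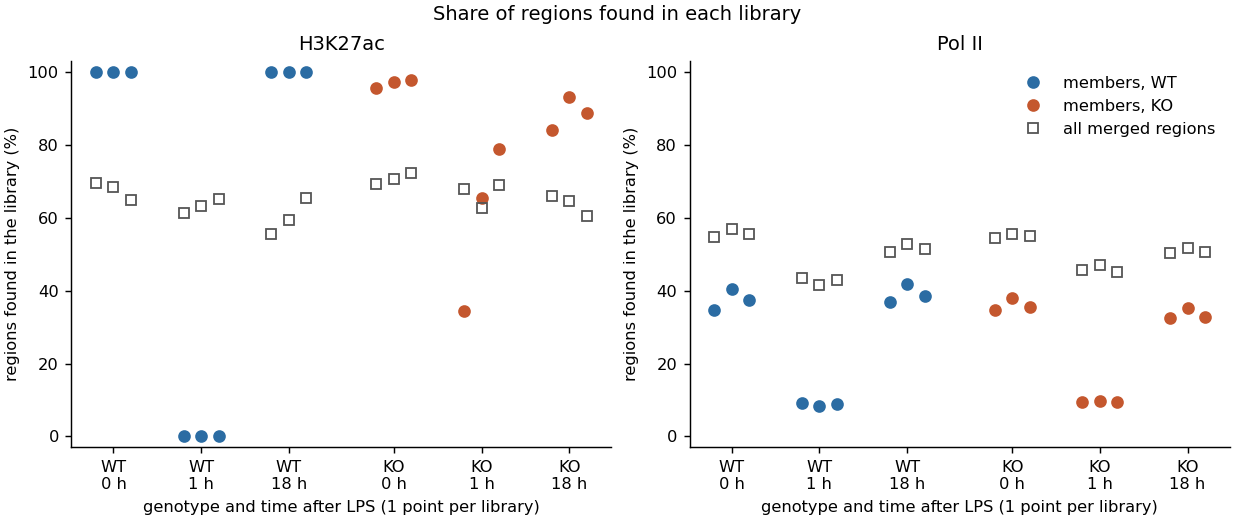
Percent of the members (filled points) and of all merged regions (open squares) found in each library (vertical axis), for H3K27ac on the left and Pol II on the right, with WT and KO at 0, 1 and 18 h on the horizontal axis. The WT H3K27ac points of members are set by the rule, KO 1 h replicates 1, 2 and 3 lie at 34.4%, 65.4% and 78.8% against 67.8%, 62.6% and 69.1% of all regions, many of which were not found at 0 or 18 h, and the share with Pol II is lower for members than for all regions in every library.

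A linear model with limma across all regions found in KO tested the change within the 9 KO libraries, and a call needed a Benjamini-Hochberg adjusted p under 0.05 and a log2 difference over 1. All differences are on a log2(normalized tags + 10) scale, which understates those of weak regions and, where a group is listed at 0, is no fold. From 0 to 1 h, 296 of 831 tested members fell and 1 rose, while 13.9% of all tested regions were called lower and 8.93% higher. The median difference was -0.82 over the members and -0.22 over all regions. From 1 to 18 h, 206 of 806 tested members rose and 1 fell, with 10.5% of all regions called higher and 15.8% lower, and medians of 0.61 and -0.15. With every region kept that had a value in any KO library, 34.4% of 836 members were lower at 1 h, against 11.4% of all regions, and 23.4% were higher at 18 h, against 8.19%. A fall and then a rise was called in 105 of the 839 members (12.5%), against 0.963% of all merged regions, with the same 1 h libraries in both steps. These counts rest on few libraries. Without replicate 2, 129 members fell from 0 to 1 h and 92 rose from 1 to 18 h, against 7.94% and 7.02% of all tested regions. Without replicate 3, 151 fell and 151 rose, against 9.01% and 8.86%. Without replicate 1, 278 of 820 members fell and 28 rose from 0 to 1 h, against 16.2% and 10.8% of all regions. In the next step 217 of 787 rose and 69 fell, against 15.2% and 24.8%. Without the 3 libraries that stand apart, 552 of 829 members fell from 0 to 1 h, against 20.5% of all regions called lower, and the median was -1.34. In that fit KO 1 h is a single library, assumed to vary like the other groups. From 1 to 18 h 439 of 751 rose and 0 fell, against 15.1% of all regions called higher, with a median of 1.27.

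The single member called higher at 1 h lay in an intron of Rtn4r and held 0, 7.27 and 0 at 0 h and 7.14, 19.5 and 17.9 at 1 h, a log2 difference of 1.01 (limma adjusted p = 0.040) from overlapping libraries. The single member called lower at 18 h lay upstream of 1700020N01Rik and went from 6.3, 26.5 and 30.6 at 1 h to 6.95, 0 and 0 at 18 h, with 59.3, 49.4 and 51.2 at 0 h. Without the 3 libraries that stand apart these differences were 0.51 and -0.70, and neither was called. Both members were picked out after their values were seen.

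The full pattern, found in all 3 KO libraries at 0 h and at 18 h and in none at 1 h, was met by 45 members (5.36%). Of all merged regions 0.400% met it, and of the 23884 found in all 9 WT libraries 3 did. Among regions that missed the rule by 1 library, it was met by 31 of 258 for 0 h (12.0%). For 1 h these were 25 of 737 (3.39%) and for 18 h 12 of 374 (3.21%). The full KO pattern was thus not particular to the members. Without the 3 libraries that stand apart, 429 members met it (51.1%), against 2.49% of all regions. The strongest of the 45 was intergenic at chr4:120642378-120646135, 20437 bp upstream of Cited4, which encodes a coactivator that binds the acetyltransferases CBP and p300. Resting KO libraries held 52.3, 53.2 and 57.8, those at 1 h held 0, and those at 18 h were back at 49.6, 52.7 and 37.6. WT held 62.7, 31.3 and 33.4 at 0 h and 30.3, 35.9 and 43.5 at 18 h, in the same range. The difference in KO was -2.69 (SE 0.18) from 0 to 1 h and 2.49 (SE 0.19) from 1 to 18 h. The same KO values picked this member, so these differences are a description and no test. The member upstream of Armc2, whose bases are given above, held 47.3, 40.8 and 47.8 in KO at 0 h, 0 at 1 h and 8.6, 21.9 and 17.8 at 18 h. It regained under the resting level in KO as in WT, where 42.1, 41.9 and 33.0 were followed by 26.3, 21.7 and 23.1. The Utp18 member held 28.0, 26.4 and 34.1 in KO at 0 h and 20.3, 22.5 and 20.4 at 18 h. Utp18 encodes a protein of small ribosomal subunit assembly. A member 10039 bp upstream of H2afz, which encodes the histone variant H2A.Z, held 35.6, 39.1 and 34.6 in KO at 0 h and 48.0, 58.2 and 48.8 at 18 h. It exceeded the resting level in both genotypes, as WT went from 37.7, 27.9 and 18.2 to 62.5, 51.8 and 62.4.

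Other members with large changes in KO were Dmpk and Prdx6 regions. The Dmpk member overlapped a start of that gene, which encodes a serine/threonine kinase of muscle, at chr7:19083546-19086345. It held 74.9, 69.0 and 80.5 in KO at 0 h and 0 in each library at 1 h, a difference of -3.08 (SE 0.44, adjusted p = 8.5e-04), and at 18 h it held 0, 30.4 and 15.7. KO 18 h replicate 1 is the library without it, and the rise at 18 h was called only when the libraries that stand apart were left out (1.69, adjusted p = 0.012, against 1.13 and 0.066 with them). The Prdx6 member went in KO from 34.9, 41.9 and 36.8 at 0 h to 0, 0 and 6.4 at 1 h and to 257.4, 246.2 and 316.5 at 18 h, a difference of 4.58 between 1 and 18 h (SE 0.24, adjusted p = 8.5e-06). It was thus above its resting level at 18 h in KO as in WT. The intronic member of Naip1, which encodes an inflammasome receptor for bacterial proteins, held 0, 12.6 and 20.5 in KO at 0 h and 57.5, 189.7 and 145.3 at 18 h, 3.07 above 1 h (SE 0.53, adjusted p = 1.8e-03).

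Not every member whose nearest gene start was that of a macrophage gene was called lower in the KO libraries, and such starts could be far away. The member at chr1:128746144-128748317, 153850 bp upstream of the chemokine receptor gene Cxcr4, held 52.7, 56.5 and 64.5 in KO at 0 h and 0, 94.9 and 101.6 at 1 h, and it was not called (-0.47). Without the 3 libraries that stand apart it was called, with a difference of -2.76 (adjusted p = 0.013). The 4 members whose nearest gene was Klf4, a transcription factor of monocyte differentiation, lay 305216 to 589245 bp upstream of it. The first, at chr4:55837683-55839523, held 32.9, 24.3 and 41.5 in KO at 0 h and 8.4, 76.4 and 69.9 at 1 h. In these members replicate 1 was below, and replicates 2 and 3 at or above, the level at 0 h. None of the 4 was called at 1 h with all KO libraries, and 2 were called lower, by 1.54 and 1.47, without those that stand apart.

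Pol II was compared over the same regions, as a readout that had no part in the choice. At 0, 1 and 18 h, 312, 72 and 320 members (37.2%, 8.58% and 38.1%) had Pol II in at least 2 of 3 WT libraries, against 55.5%, 42.3% and 51.4% of all merged regions. Single WT libraries held Pol II in 291 to 339 members at 0 h, 71 to 78 at 1 h and 310 to 352 at 18 h. In KO the numbers were 291 to 319 (34.7% to 38.0%), 79 to 82 (9.42% to 9.77%) and 273 to 295 (32.5% to 35.2%). Of all merged regions, KO libraries held Pol II in 54.6% to 55.5%, 45.2% to 47.0% and 50.4% to 51.8%. Pol II was thus found in fewer members at 1 h in every library of both genotypes, and in fewer of all merged regions as well. No WT library had Pol II in 311 members (37.1%, against 30.2% of all regions), and all 9 had it in 50. A Pol II pattern like that of H3K27ac, found in at least 2 of 3 libraries at 0 and 18 h and in none at 1 h, was met by 147 members in WT (17.5%, against 7.64% of all regions) and 110 in KO (13.1%, against 5.46%), with 86 in both. This pattern rests on found or not found near the threshold. Where found, members had a median of 12.3 to 13.8 at WT 0 h, and a window needed 5.24 to 5.75. By size of change, a fall and then a rise was near the background, as given below.

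In the limma model over 18 Pol II libraries, 142 of 318 tested members fell from 0 to 1 h in WT and 10 rose, against 31.7% and 13.6% of all tested regions. The median difference was -0.94, against -0.51 over all regions. From 1 to 18 h in WT, 169 of 327 rose and 7 fell, against 33.6% and 13.5%, with medians of 1.04 and 0.53. In KO, 144 of 302 fell and 13 rose from 0 to 1 h, against 27.7% and 15.4%, with medians of -0.99 and -0.38. From 1 to 18 h in KO, 128 of 288 rose and 10 fell, against 26.6% and 16.6%, with medians of 0.89 and 0.29. These medians and shares cover members that passed the filter on found libraries, mostly at 0 or 18 h, where they are high, and support no difference from all regions. When every region with Pol II in any library was kept, 142 of 575 members fell from 0 to 1 h in WT (24.7%), against 25.7% of all regions, and the medians were -0.30 and -0.26. In KO 144 of 575 fell (25.04%), against 22.6%. From 1 to 18 h the shares that rose were 29.4% in WT, against 25.7%, and 22.3% in KO, against 20.7%. A fall at 1 h followed by a rise at 18 h was called in 84 of the 839 members in WT (10.01%) and 61 in KO (7.27%), against 11.6% and 8.19% of all merged regions. In both genotypes 117 members fell at 1 h (13.9%), against 14.6%. These joint counts of members were thus near the background. Both steps use the same 1 h libraries. Centred on the median of each library, 91 members fell and 15 rose at 1 h in WT, against 22.7% and 18.2% of all regions, and 82 rose and 11 fell at 18 h, against 20.7% and 20.7%. Restricted to regions without an input region, 44 of 90 tested members were called in WT from 0 to 1 h and 37 of 87 from 1 to 18 h, against 42.0% and 43.4% of all such regions. With a pseudocount of 1 the WT counts were 254 and 271, and calls over all tested regions rose to 59.3% and 59.1%.

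**Figure D3:**
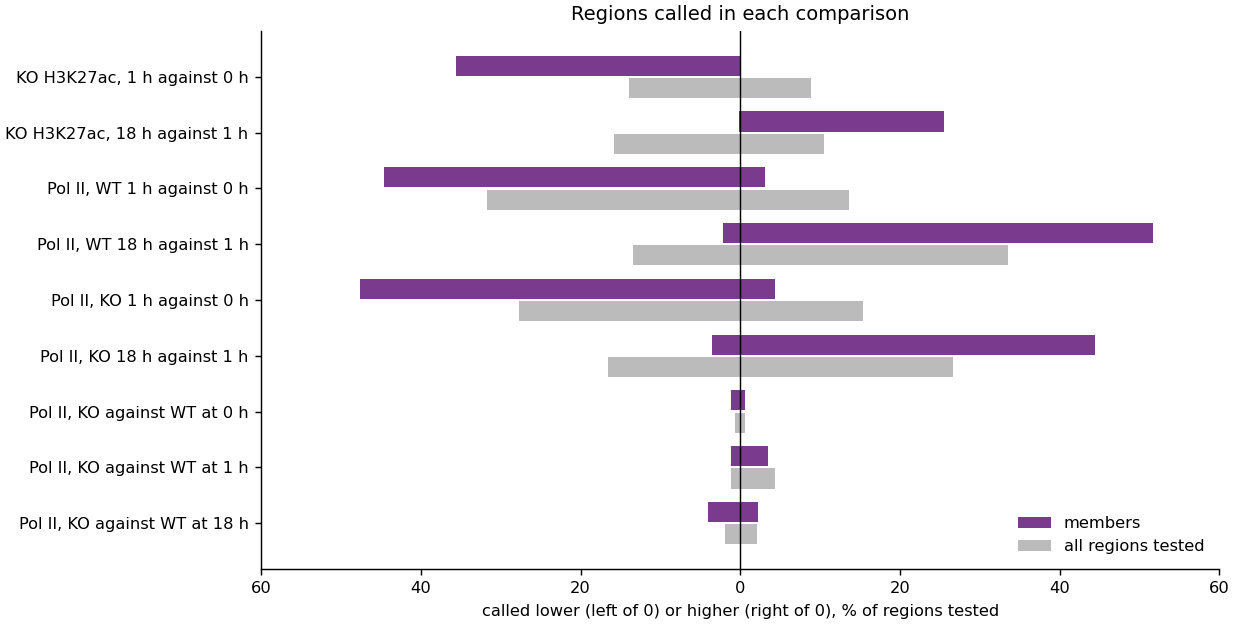
Percent of tested members and of all tested regions called higher or lower (horizontal axis) in each H3K27ac and Pol II comparison (vertical axis). The members' bar for lower at 1 h exceeds that of all regions in KO H3K27ac. Pol II bars cover only members that passed the filter, and with every region kept the WT shares lower at 1 h are 24.7% and 25.7%.

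The members described next were picked from those named for genes of known function, after their values were seen, and stand for no gene group. An intronic member of Pltp, which encodes the phospholipid transfer protein, lay at chr2:164846957-164848346. Resting WT libraries held 209.2, 204.7 and 223.4 normalized tags of Pol II, which dropped to 6.2, 20.6 and 6.7 after 1 h of LPS and came back to 167.7, 177.6 and 166.8. The differences were -3.46 (SE 0.17, adjusted p = 6.0e-11) and 3.16 (SE 0.17, adjusted p = 1.7e-10). Its H3K27ac was weak, at 6.6 to 9.9 at 0 h. The member over an exon of Psap, the gene of the lysosomal saposin precursor, lay at chr10:60303439-60305980 and had the highest Pol II among those named. It went from 811.1, 915.3 and 901.8 to 118.4, 115.6 and 126.1 within 1 h and on to 1880, 1760 and 1834 by 18 h, with differences of -2.77 and 3.82 (SE 0.05 for each, adjusted p = 1.1e-15 and 5.7e-17). The intronic member of Gclm, the modifier subunit of the first enzyme of glutathione synthesis, at chr3:122249680-122251967, held 16.6, 21.4 and 11.1 at 0 h and 128.9, 128.1 and 117.8 at 18 h, and Pol II was not found at 1 h. KO showed 0 at 1 h and 105.3, 114.5 and 107.6 at 18 h. This member also had the full H3K27ac pattern in KO. The member 29088 bp from the start of Csf2rb, the shared beta chain of the GM-CSF, IL-3 and IL-5 receptors, held 52.3, 44.0 and 43.6 at 0 h, 0 at 1 h and 103.4, 92.2 and 89.8 at 18 h. In the Npas4 member Pol II was 58.6, 71.1 and 65.0 at 0 h and was not found at 1 h or 18 h, a difference of -2.90 (SE 0.08, adjusted p = 7.3e-14). There H3K27ac returned in part and Pol II was not detected again. A pair of neighbouring members near Ubald1, at chr16:4862494-4864124 and chr16:4868873-4870574, fell by 3.56 and 3.61, and 1 wide Pol II region covered both, so their values are not separate.

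**Figure D4:**
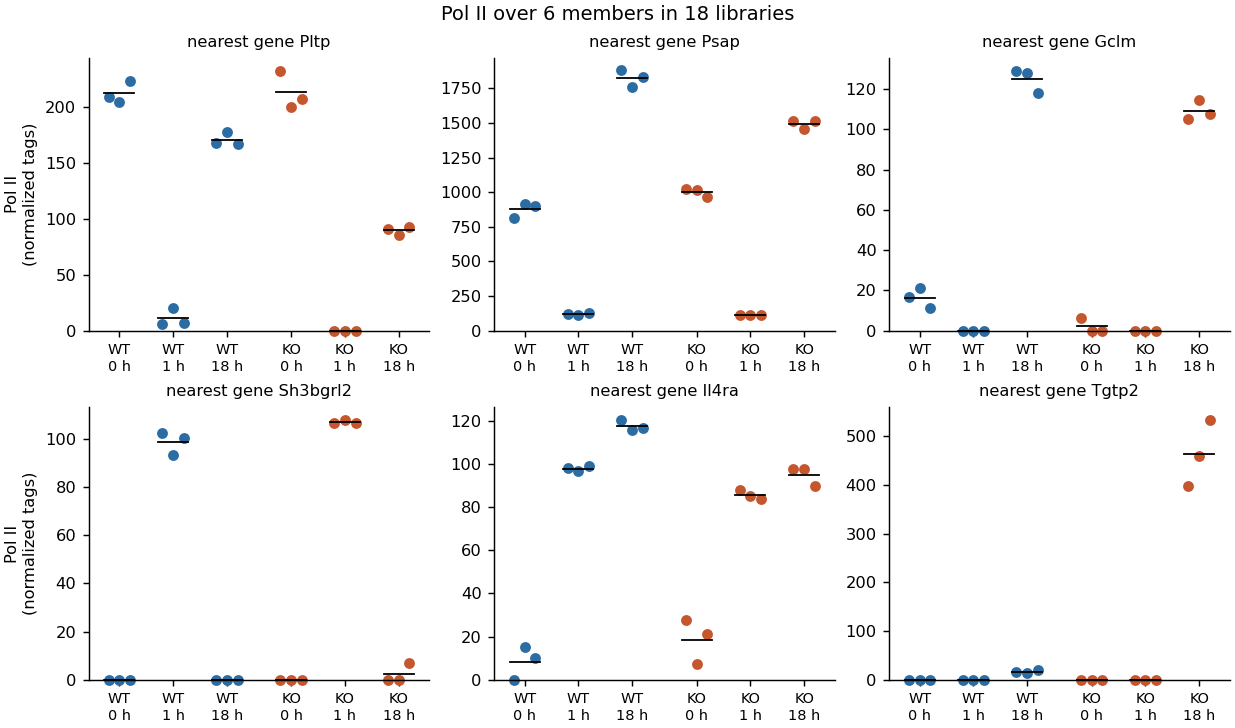
Pol II in normalized tags (vertical axis, linear) of 6 members in each of the 18 Pol II libraries, with WT and KO at 0, 1 and 18 h on the horizontal axis, each point a library and each short line a group mean. Pltp, Psap and Gclm members are lowest at 1 h, Sh3bgrl2 peaks at 1 h, Il4ra stays high at 18 h, and Tgtp2 is high in KO at 18 h.

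At 10 members Pol II rose at 1 h in WT while no H3K27ac region was found there. All 10 were among the 173 tested members in introns, and of all tested regions 13.6% rose. Tags of wide Pol II regions were shared out as if even, so Pol II of the gene body and Pol II at the member cannot be told apart. The largest rise was in an intron of Sh3bgrl2, at chr9:83568142-83569890, 49 bp from a region that WT did have at 1 h. Pol II was not found at 0 or 18 h and was 102.4, 93.4 and 100.5 at 1 h in WT, a difference of 3.44 (SE 0.15, adjusted p = 1.3e-11), and 106.6, 107.8 and 106.5 in KO. Over the whole Sh3bgrl2 gene Pol II went from 27.6, 36.7 and 44.4 to 4116, 3784 and 4032 and back to 52.2, 40.1 and 33.7. An intronic member of Il4ra, the alpha chain of the IL-4 receptor, at chr7:125564871-125566968, rose from 0, 15.0 and 10.2 to 98.3, 96.6 and 98.9 at 1 h (2.65, SE 0.28, adjusted p = 4.9e-07) and held 120.4, 115.8 and 116.6 at 18 h. The Man2a1 member, in an intron of the gene for a Golgi mannosidase, rose by 2.56 (SE 0.35, adjusted p = 6.9e-06), from 0, 0.9 and 0 to 46.8, 58.0 and 47.5. The other 7 were near Psmd11, 3110009E18Rik, Tbl1x, Klhl25, Lrch3, Scn3b and Fam219a, with differences of 1.03 to 1.68. Of the 10, those near Sh3bgrl2, Man2a1, 3110009E18Rik, Tbl1x, Klhl25 and Scn3b fell again at 18 h.

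Between genotypes few members differed in Pol II. At 0 h, 2 of 347 tested were higher in KO and 4 lower, against 0.650% and 0.679% of all regions. Without replicate 1 the counts were 3 higher and 10 lower, without replicate 2 they were 5 and 3, and without replicate 3 they were 7 and 4. In these settings 1.57% to 1.75% of all tested regions were called. The balance of members at 0 h thus changed with the library left out, and nothing is read from it. At 1 h, 3 of 85 were higher and 1 lower, against 4.42% and 1.14%. At 18 h, 8 of 350 were higher and 14 lower, against 2.13% and 1.86%, and the median difference was -0.19 over members and -0.04 over all regions. Centring each library on its median turned the counts at 0 h to 1 higher and 6 lower and those at 1 h to 1 higher and 4 lower, while all regions moved to 0.462% higher and 0.971% lower at 0 h and to 2.03% and 2.08% at 1 h. The KO genome around each difference was not examined. The largest was intronic at chr11:49067727-49069157, 3520 bp from the start of Tgtp2, which encodes an interferon-induced GTPase. Pol II was 398.3, 458.4 and 533.0 in KO at 18 h and 16.8, 13.1 and 20.7 in WT, a difference of 4.14 (SE 0.11, adjusted p = 2.0e-12), and it was not found at 0 or 1 h in either genotype. The same member held 19.6, 24.8 and 23.3 tags of H3K27ac in KO by then, against 24.9, 24.4 and 23.3 in WT, so the genotypes overlapped in that mark. The member over an exon of Mras, a Ras family GTPase gene, held 32.7, 31.1 and 37.5 in KO at 18 h and no Pol II region in WT (2.13, SE 0.08, adjusted p = 7.0e-11). In the other direction, the member 4889 bp upstream of Cd5l, at chr3:87349330-87352992, held 25.5, 29.8 and 33.2 in WT at 18 h and none in KO (-1.98, SE 0.08, adjusted p = 3.1e-10). Cd5l encodes a secreted scavenger receptor cysteine-rich protein of tissue macrophages. H3K27ac of this member at 18 h was 69.8, 113.9 and 106.1 in WT and 5.7, 20.0 and 9.7 in KO. Pol II over the Cd5l gene was 727, 849 and 851 in WT at 0 h and 7.19, 14.6 and 7.32 in KO. The genotypes did not overlap in these values. At 0 h the members near Zc3h12d (-1.74), Mrpl33 (-1.35), Gclm (-1.14) and Rsbn1 (-1.06) were lower in KO, and those near Zfp395 (1.54) and Olfr1507 (1.09) were higher. At 1 h those near Nol11 (1.72), Snx4 (1.05) and Tnfrsf10b (1.03) were higher in KO and that of Pltp (-1.02) lower. Without replicate 3, 2 members were called at 1 h, and with 1 replicate left out 5.29% to 6.70% of all tested regions were.

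The genes nearest to members were examined for Pol II over the whole gene, as a neighbourhood and not as a target. Of 634 tested, 374 fell from 0 to 1 h in WT and 41 rose, against 43.3% and 10.3% of all tested genes. From 1 to 18 h, 338 of 615 rose and 36 fell, against 42.8% and 9.36%. The median difference at 1 h was -0.82 over all tested genes and -1.22 over those nearest to members. When each library was centred on its median the median over all genes was -0.03, 217 nearest genes fell and 79 rose at 1 h, against 18.9% and 19.7% of all genes, and 185 rose and 93 fell at 18 h, against 18.6% and 22.0%. A fall and then a rise was called in 279 of the 749 nearest genes (37.2%), against 18.3% of all 21897 genes, of which a smaller part had Pol II to test. A rise and then a fall was called in 18 (2.40%), against 3.40%. Hmox1, the gene of haem oxygenase 1, fell from 1357, 1449 and 1431 to 92.6, 138 and 143 (-3.42, SE 0.13, adjusted p = 4.7e-14) and then reached 4413, 4321 and 4367. Gclm, another gene of redox defence, went from 143, 174 and 166 to 27.2, 26.1 and 25.8 and to 1475, 1466 and 1348, a rise of 5.31 (SE 0.10, adjusted p = 4.7e-18). Both genes had a higher level at 18 h than before LPS. Fam198b fell from 1108, 1281 and 1281 to 0, 0 and 6.66 and returned to 436, 406 and 408, which is under the resting level. Man2a1, Ktn1, Diaph2 and Ednrb rose at 1 h. Diaph2, a formin gene whose start is 1116140 bp from the member, went from 122, 131 and 186 to 4723, 4236 and 4448 (4.86, SE 0.11, adjusted p = 6.6e-17). Counted only within 500 bp of the start, 119 of 536 nearest genes fell and 9 rose at 1 h, against 15.2% and 4.41% of all genes, and 112 of 511 rose and 8 fell at 18 h, against 16.4% and 3.93%. There Pol II of Man2a1 (-0.53) and Tbl1x (-0.0788) did not rise at 1 h.

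From 20 gene lists with 242 placed genes, 15 genes (6.20%) were nearest to 20 members, against 3.42% of all genes, and 11 lists had none. At that share lists of this size often have none, and nothing is read from it. Among the lists with none were 15 early LPS genes, 13 late LPS genes, 16 interferon response genes and 10 NF-kB factors. In WT at 1 h Pol II over the gene rose in 12 of the early genes, 12 of the late, 15 of the interferon response and 8 of the NF-kB genes, and it fell in 1 early gene. In the lists below, counts of falls are to be read against the 43.3% of all genes that fell and counts of rises against 10.3%. Among chemokine and growth factor receptors, members were nearest to Cxcr4, Il4ra, Tnfrsf1a and Csf2rb. Cxcr4 fell from 412, 432 and 435 to 66.5, 69.9 and 61.1 (-2.53, SE 0.09, adjusted p = 3.2e-14), and the other 3 were not called at 1 h. Of the 18 genes in that list 5 rose and 2 fell. Of the scavenger and efferocytosis receptors, Scarb1, a receptor of high-density lipoprotein, fell by 2.89 and Cd5l by 1.88, and 9 of 13 tested genes of the list fell and 2 rose. Rxra, the nuclear receptor partner of LXR, went from 159, 201 and 155 to 0, 0 and 6.86 and to 602, 604 and 594 (-3.92, SE 0.30, adjusted p = 8.9e-10, then 5.68). Of its list of 12 LXR and cholesterol efflux genes 4 fell and 1 rose. Tlr4, which encodes the LPS receptor, fell from 1622, 1982 and 1918 to 452, 432 and 418 (-2.05, SE 0.07, adjusted p = 7.2e-15), and 3 of the 20 Toll-like receptor signalling genes fell while 4 rose. Prkcb, a protein kinase C gene with 2 intronic members, fell by 3.04 and rose by 4.19, and 11 of 18 phosphoinositide and Ras signalling genes fell at 1 h and 4 rose. Klf4 fell by 2.02 and rose by 2.27, and of the 15 macrophage lineage genes 8 fell and 2 rose. Among AP-1 factors Fos fell by 1.93 and Batf3 was not called (-0.61), and 7 of 20 in the list fell and 6 rose. Ctsb of the lysosome list was not called at 1 h (-0.66), where 9 of 16 fell and 2 rose, and of the actin and adhesion genes Diaph2 rose and Itgb1 was not called (0.38), where 4 of 16 rose and 4 fell. After centring, when 18.9% of all genes fell and 19.7% rose, 4 AP-1 genes fell and 9 rose, 1 Toll-like receptor signalling gene fell and 8 rose, 6 lysosome genes fell and 2 rose, and 7 phosphoinositide and Ras signalling genes fell and 5 rose. In the scavenger list 9 then fell and 3 rose, in the lineage list 7 and 3, in the LXR list 4 and 3, in the actin list 2 and 6 and in the receptor list 1 and 10, with Il4ra (1.79) and Itgb1 (1.18) among those called higher.

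Of members within 1000 bp of the start of a protein-coding gene, the strongest at WT 0 h was at Dmpk. Pol II there was 56.1, 59.0 and 58.9 at 0 h and 0 at 1 h (-2.77, SE 0.21, adjusted p = 1.2e-08), and at 18 h 0, 0 and 7.1. At Rogdi, chr16:5010776-5014393, H3K27ac was 75.7, 79.9 and 73.7 in WT at 0 h and 70.8, 82.2 and 68.5 at 18 h, while Pol II was still found at 1 h, at 38.3, 26.2 and 25.8. Of the 10 strongest such members, Rogdi alone kept Pol II in all 3 WT libraries at 1 h. At Bmx, a Tec family tyrosine kinase gene, Pol II went from 18.7, 20.1 and 19.9 to 0 and back to 13.1, 13.1 and 12.2. At Ccnd3, the cyclin D3 gene, it went from 11.6, 11.5 and 9.8 to 0 and to 17.1, 14.4 and 14.7, and over the whole gene from 254, 277 and 270 to 109, 83.3 and 94.0 and to 457, 468 and 481. The remaining 6 were at Phxr2, 2200002J24Rik, Ubap1l, Got1l1, Gli1 and Npcd. No Pol II region overlapped the Gli1 member in any library, although Pol II over the gene fell from 187, 210 and 215 to 0 in all 3 WT libraries. Npcd kept Pol II neither at 1 h nor at 18 h in WT.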

How the data were processed

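H3K27ac and Pol II ChIP-seq and input libraries of WT and KO macrophages were analysed from the deposited region lists, 42 in all with 36 ChIP and 6 input libraries. Per the study's methods reads were trimmed with Skewer and aligned to mm10, and the submitters' processing notes name HISAT2 2.1.0 and HOMER. The authors searched each library on its own with HOMER for broad regions, without input as control, using windows of 500 bp, a Poisson p-value of 0.001 and stitching under 1000 bp. The deposited signal of a region counts its tags after scaling each library to 10 M tags (M, mega), named normalized tags in the text, and a region not found in a library was set to 0. Sums of this signal therefore depend on the length that passed the search.

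Regions of the 9 WT H3K27ac libraries were merged where they overlapped. Regions of KO H3K27ac and Pol II libraries were shared out by their overlap with a merged region, as if tags lay evenly in them. Genes were 21897 protein-coding genes of GENCODE vM21, without 54 that share a symbol, and Pol II over a gene runs from 500 bp before it to 500 bp past it. The log2 of normalized tags plus a pseudocount of 10 was fitted by limma 3.58.1 with an intensity trend, in R 4.3.3. A test needed the region to be present in 2 or more libraries of one of the compared groups, and p-values were adjusted by Benjamini-Hochberg over all tested regions or genes. The H3K27ac model used the 9 KO libraries, and the Pol II models all 18. The model was tested on simulated data with known changes. Tables and plots used Python 3.11.15, pandas 2.3.3, numpy 2.4.6 and matplotlib 3.10.9.

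The members and the gene lists were chosen with earlier results of these data known. Named were the 10 members with the highest WT 0 h mean, the 10 strongest with the full pattern in KO, up to 10 called in each direction of a comparison by size, the 10 strongest within 1000 bp of a gene start, and members nearest to a listed gene. A selection of these is described. Alternatives covered merging, the region threshold, pseudocount, centring, filters, how KO and Pol II regions are counted, replicates left out and a replicate block. Leaving out regions with an input region and the 3 KO libraries that stand apart were added after the data were seen. The deposited region scores were not used.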

Additional observations from a re-analysis of the deposited data

How the results depend on the processing

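The number of members was 463 with a common density floor in the 9 WT libraries, 232 without input regions and 1270 to 1403 with 1 replicate left out of each group. In KO H3K27ac, calls from 0 to 1 h numbered 130 to 306 and from 1 to 18 h 93 to 286 with a replicate left out. Without replicate 1 they were 28 higher and 278 lower, then 217 higher and 69 lower, against 1 and 296, then 206 and 1, while all regions had 10.8% higher and 16.2% lower, then 15.2% and 24.8%. Leaving out the 3 KO libraries that stand apart gave 553 and 439, and 429 members with the full KO pattern.

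In Pol II a pseudocount of 1 gave 254 calls in WT from 0 to 1 h, 271 from 1 to 18 h and 221 in KO from 1 to 18 h. For KO against WT it gave 15, 17 and 60 at 0, 1 and 18 h. All regions called rose as well, to 59.3%, 59.1%, 54.7%, 2.65%, 12.8% and 8.23% in this order. Centring each library on its median gave 93 in WT from 1 to 18 h (41.4% of all regions), and nearest genes went from 374 lower and 41 higher at 1 h to 217 and 79, with all genes at 18.9% and 19.7%. Without a filter 575 members had Pol II to test, and 24.7% were lower at 1 h in WT against 25.7% of all regions. Flanks of 1000 bp gave 10 of 365 and 9 of 97 for KO against WT at 0 and 1 h, against 1.92% and 7.38% of all regions, and a replicate left out gave 8 to 13 and 2 to 5, against 1.57% to 1.75% and 5.29% to 6.70%. Among regions with no input overlap, where fewer members are tested, H3K27ac calls were 100 and 37, Pol II calls 44 and 37 in WT and 45 and 32 in KO, and KO against WT gave 2, 1 and 5. All such regions were called at 23.7% and 23.4%, 42.0% and 43.4%, 40.4% and 39.4%, and 1.91%, 5.72% and 5.59%. Apart from the input overlap and fewer regions tested, the cause of these shifts was not tested.

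Pol II within 500 bp of the start gave 128 of 536 and 120 of 511 called nearest genes, against 19.6% and 20.4% of all genes, and turned the sign for Man2a1 (-0.53 at 1 h) and Tbl1x (-0.0788 at 1 h and 0.55 at 18 h). Of 165 tested values of named members and genes, 115 kept their direction and call in all alternatives, 47 lost the call in at least 1, and these 3 changed sign.

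Replicate numbers pair no samples. Same-numbered libraries had correlated deviations of -0.365 to 0.0494 in H3K27ac and -0.0427 to 0.0442 in Pol II. With a replicate block 1 member, that near Nol11, was called for KO against WT at 1 h, the single H3K27ac calls near Rtn4r and 1700020N01Rik were lost, and the other total counts stayed within 1.5 times those without it.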
